A study of Mus musculus with 20 samples.

Results

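Complement and coagulation are the plasma protein cascades that the liver makes for the whole body, and 38 genes of these cascades were followed here in kidney and liver of mice. The members were 38 listed symbols, each matched by name to 1 gene of the 54532 in the count table, and all 38 were found. RNA was read from 20 libraries of male C57BL/6 mice in 4 groups of 5, kidney and liver of mice labelled Lxrα-/- and of mice labelled wild type. Titles number the labelled knockout mice 1 to 5 and the wild-type mice 1, 3, 4, 5 and 6. The age, the diet, whether the mice were littermates and the deleted part of the gene are not in the labels. The labels count 5 mice of each genotype, and the p values measure the spread between these mice.

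Complement is started by several routes. The C1 complex recognises bound antibody, mannose-binding lectins recognise microbial sugars and act through the MASP proteases, and the alternative route amplifies itself through factors B and D with properdin as a stabiliser. All routes cleave C3, and then C5, after which C5b, C6, C7, C8 and C9 assemble into a pore in the target membrane. Coagulation ends with thrombin cutting fibrinogen into fibrin, which plasmin dissolves, and most of these proteins are secreted by hepatocytes, whereas C1q and properdin are made largely by macrophages and other myeloid cells. Nr1h3 encodes Lxrα, an oxysterol-sensing transcription factor that is active in both hepatocytes and macrophages.

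The libraries held 23421561 to 35376342 counts. Nr1h3 itself was higher where the label says knockout, at 99.4 to 157 CPM (counts-per-million, scaled by library size and TMM factor) in kidney against 49.6 to 55.0, and at 145 to 189 in liver against 85.5 to 120. Gene totals cannot tell exons apart, so this neither checks nor identifies the allele, and every direction below follows the label. Tissue identity held in every library. Summed hepatocyte markers (11 of 12 found) stood at 66072 to 140987 CPM in liver and 132 to 706 in kidney, and 9 proximal tubule markers at 24559 to 57897 in kidney and at most 3.28 in liver. Some libraries stood apart. Wild-type kidney 3 had 50.8% of its counts on mitochondrially encoded genes and wild-type kidney 1 had 7.21%, against 12.6% to 21.1% in the other kidneys. Labelled knockout livers 4 and 5 had 68067 and 114414 CPM over 12 acute phase genes, against 9521 to 14295 in the other 8 livers. Values without these libraries are given for part of the members only.

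The cascades took 2.87% to 5.78% of all counts in liver and 0.0343% to 0.0673% in kidney. Compared per length, as FPKM (the CPM without its TMM factor, divided by gene length in kilobases), the fibrinogen genes and vitronectin led in wild-type liver. Fgg, the fibrinogen gamma chain, stood at 1719 ± 118 FPKM (mean ± SD, n = 5), Vtn, an adhesion protein that also restrains the complement pore, at 1712 ± 123, Fga at 1524 ± 218 and Fgb at 1245 ± 61.9. The ranges of neighbouring genes in this order overlapped. High-molecular-weight kininogen, Kng1, followed at 868 ± 65.0 and C3 at 835 ± 185, and both lay below every Fgb library. In all, 22 of the 38 members exceeded 100 FPKM in wild-type liver. At the low end of the liver order stood C2 at 14.01 ± 1.83, Cfd at 11.5 ± 24.4 and Cfb at 0.953 ± 0.376 FPKM.

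In wild-type kidney the order was another one. Proc, the precursor of the anticoagulant protein C, led at 124 ± 13.4 FPKM with no overlap with the next gene, and F13b, the carrier subunit of the fibrin-crosslinking factor XIII, followed at 34.2 ± 20.9. From F13b down to C4b, at 0.995 FPKM, the ranges of neighbours in this order overlapped. The 3 C1q chains stood at 21.6 ± 6.71 (C1qa), 17.5 ± 5.39 (C1qb) and 8.19 ± 2.83 (C1qc), and C8g at 13.4 ± 3.47. The mean was higher in liver for 37 of the 38 members, and leaving out 1 wild-type library turned this for Cfd alone, which stood at 1.79 FPKM in kidney and 0.578 in liver without wild-type liver 5. The kidney level was at least 10% of the liver level for 10 members, between 1% and 10% for 5 and under 1% for 23. Those at 10% or more were Cfb (244%), F13b (46.4%), C1qb (36.4%), C1qa (35.7%), Pros1 (35.5%), C1qc (31.0%), Proc (26.7%), Cfp (26.6%), C2 (25.7%) and Cfd (15.5%). Without wild-type kidney 1 the share of Cfb was 136% and that of Cfd 4.85%, and without wild-type liver 5 that of Cfd was 309%. The Cfb and C2 levels are uncertain in both tissues. The annotated gene Gm20547 (mm10 chromosome 17, 34856412 to 34882042) lies over both on the same strand and has 0 counts in all 20 libraries, and how reads in the shared part were counted is not given in the sources used here. F11, the contact factor XI, had 0 counts in all 5 wild-type kidneys, where 0 of 142986362 counts allows up to 0.021 CPM by counting error alone.

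**Figure D1:**
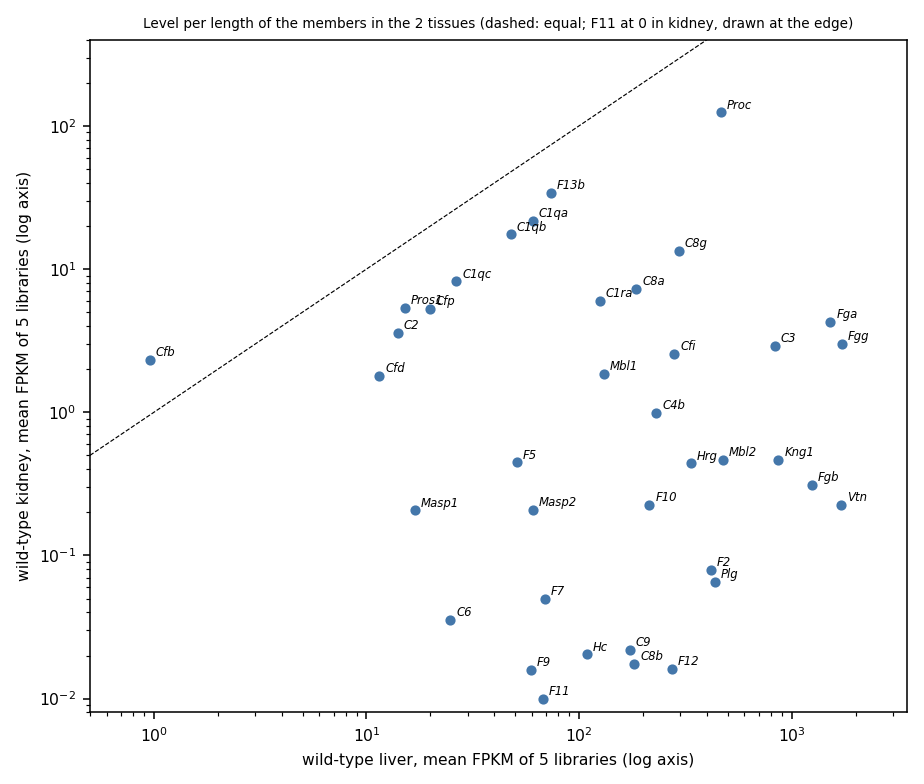
Mean FPKM of each member in wild-type kidney (vertical, log axis) against wild-type liver (horizontal, log axis), 1 point per gene, n = 5 libraries per tissue, with equality as a dashed line. Only Cfb, at 2.32 against 0.953 FPKM, lies above the line, Proc is the highest in kidney at 124, and the fibrinogen genes and Vtn are the highest in liver.

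For the genotype comparison in liver, all 38 members passed the filter on low counts. By edgeR's quasi-likelihood test with Benjamini-Hochberg adjustment over 14822 genes, 3 members rose in the labelled knockout (C6, Hc and C9), 2 fell (Mbl2 and Cfp) and 33 were not called. This is 13.2% of the members, where the same rule called 6.02% of all genes tested, 1.94% higher and 4.08% lower. The median log2 fold change was 0.02 over the members and -0.00322 over all genes. The groups did not overlap for 4 members that were higher and 2 that were lower, against 2.42% and 4.53% of all genes. Without labelled knockout livers 4 and 5, 1 member was called higher (C6) and 4 lower (Mbl2, Cfp, C1qb and C1qc) by edgeR, against 1.41% and 2.74% of all genes in that fit. With all livers, DESeq2 called 5 members higher and 2 lower, against 3.63% and 5.87% of all genes, and limma voom 2 and 3, against 2.64% and 5.14%. At an unadjusted p under 0.05 by edgeR there were 5 higher and 4 lower, against 8.76% and 11.5% of all genes.

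In kidney, 29 members passed the filter. None was called higher and 2 were called lower, C1ra and Pros1, by the same edgeR test over 16500 genes. That is 6.9% of those tested, where 2.26% of all genes were called, 0.394% higher and 1.87% lower. At an unadjusted p under 0.05 there were 3 members higher and 7 lower, against 5.81% and 14% of all genes. DESeq2 called 1 member higher and 2 lower, against 1.85% and 5.07% of all genes, and limma voom 2 and 7, against 4.85% and 8.18%. Without wild-type kidneys 1 and 3, edgeR called 1 higher and 2 lower, against 1.05% and 2.46%. The median log2 fold change was 0.126 over the members tested and -0.0738 over all genes. The groups did not overlap for 1 member that was higher, Proc, and for the 2 called lower, against 2.79% and 4.13% of all genes. The other 9 members, Hc, C6, C8b, C9, F7, F9, F11, F12 and Plg, were not tested in kidney. They had 2 (F11) to 70 (Plg) counts summed over the 10 kidney libraries, with at most 23 in any of them.

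**Figure D2:**
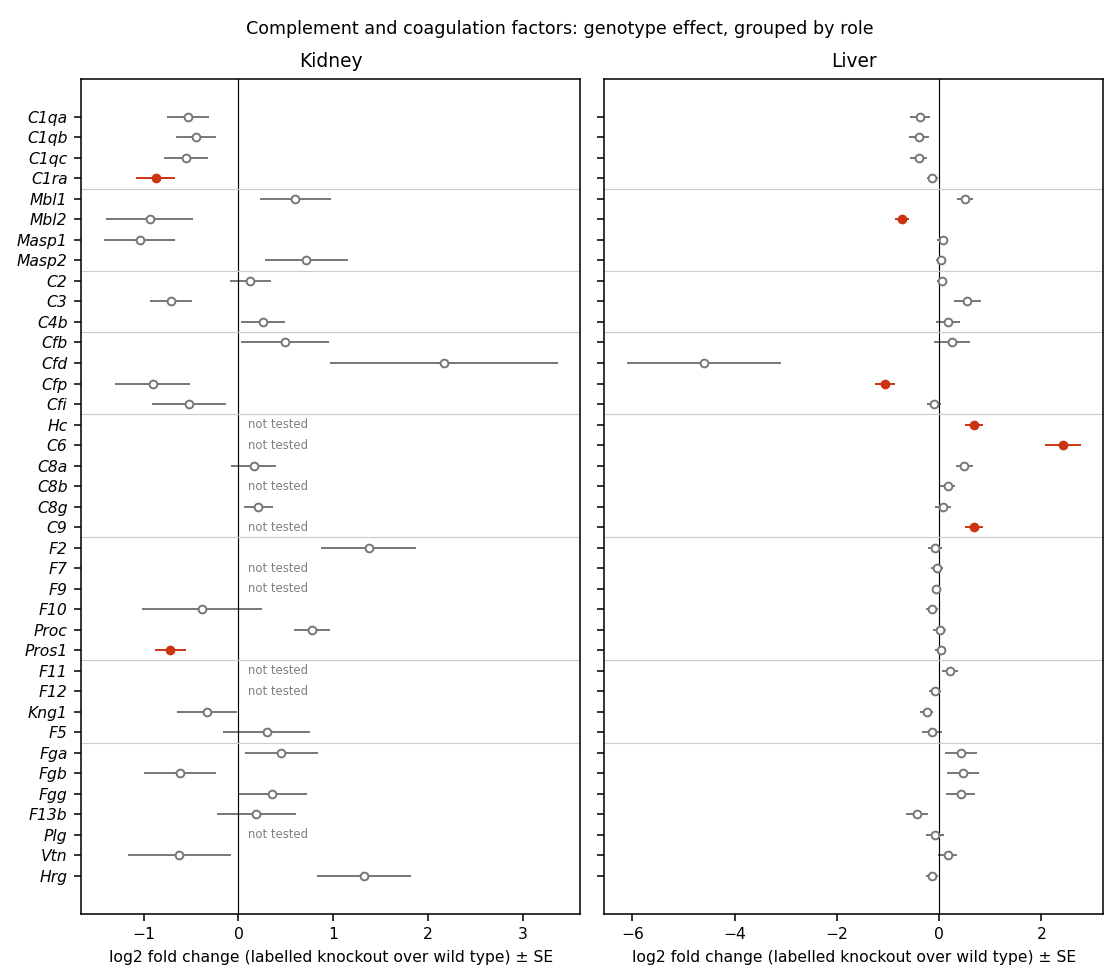
Log2 fold change of labelled knockout over wild type with its SE for each member in kidney (left) and liver (right), from edgeR fits of 10 libraries each, grouped by role with grey lines. Filled red points passed an adjusted p of 0.05: C1ra and Pros1 in kidney, and Mbl2, Cfp, Hc, C6 and C9 in liver. The horizontal axes of the panels differ.

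The 3 members called higher in liver are among the 6 of the terminal pathway, where edgeR called 1.94% of all genes higher. All 6 had positive values, with a median of 0.59, and 49.5% of all genes were positive. Without labelled knockout livers 4 and 5, C6 alone was called, and C8b was at 0.06 and C8g at 0.15. C6, the pore component that binds C5b, had the largest change of any called member. Its level was 104, 65.3, 141, 25.3 and 91.9 CPM in wild-type livers 1, 3, 4, 5 and 6, and 372, 479, 381, 587 and 462 in labelled knockout livers 1 to 5. Every labelled knockout library lay above every wild-type one, and wild-type liver 5 was the lowest of all. The log2 fold change was 2.42 (SE 0.35, edgeR adjusted p = 0.00145), a 5.34-fold rise. It ran from 2.18 to 2.69 when each library was left out in turn, was called in 10 of 10 such fits, and was 2.28 with labelled knockout livers 4 and 5 left out (edgeR adjusted p = 0.00847).

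C9, which polymerises to line the pore, stood at 465, 401, 559, 272 and 458 CPM in wild-type livers 1, 3, 4, 5 and 6 and at 666, 677, 609, 823 and 674 in labelled knockout livers 1 to 5. The groups did not overlap, and wild-type liver 5 was again the lowest. C9 rose by 0.68 on the log2 scale (SE 0.18, edgeR adjusted p = 0.0383). The call is marginal. It was lost without wild-type liver 1, 3 or 6 or labelled knockout liver 1, 2, 4 or 5, with adjusted p up to 0.094 and a fold change between 0.55 and 0.80, with no TMM scaling (0.60, edgeR adjusted p = 0.0758), and without labelled knockout livers 4 and 5 together (0.61, edgeR adjusted p = 0.11).

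Hc, the mouse gene of C5, stood at 667, 636, 737, 569 and 713 CPM in wild-type livers and at 845, 862, 870, 1397 and 1356 in labelled knockout livers 1 to 5. The groups did not overlap, and labelled knockout livers 4 and 5 were the highest of the 10. The annotated span of Hc (mm10 chromosome 2, 34983331 to 35061438, minus strand) overlaps that of Gm13449 on the other strand, and strand use in counting is not given. The log2 fold change was 0.68 (SE 0.18, edgeR adjusted p = 0.0383). Without those livers it was 0.38 and not called (edgeR adjusted p = 0.101). The call was also lost without any single wild-type liver, or without labelled knockout liver 4 or 5 alone (adjusted p up to 0.0929), with no TMM scaling (0.60, edgeR adjusted p = 0.0684), with limma voom (0.44, limma adjusted p = 0.0578), on the log2 FPKM values (0.66, limma adjusted p = 0.0534) and in a fit of all 20 libraries (0.70, edgeR adjusted p = 0.368).

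The 3 subunits of C8, which inserts into the membrane before C9, gave 1 pair of groups apart and 2 that overlapped. C8a stood at 537 to 755 CPM in wild type and 764 to 1273 in the labelled knockout, without overlap, but was not called by edgeR (0.50, SE 0.17, adjusted p = 0.118). DESeq2 called it (0.52, DESeq2 adjusted p = 0.033), and without labelled knockout livers 4 and 5 it was 0.30 (edgeR adjusted p = 0.319). C8b (0.16) and C8g (0.08) overlapped between the groups. C6 and C9 lie near each other on mm10 chromosome 15, C6 at 4727175 to 4814967 and C9 at 6445327 to 6498751, both on the plus strand, and C7 lies between them at 4988762 to 5063740. C7, which was not a member, was low in liver, at 0.0776 to 0.661 CPM in wild type and 0.293 to 2.48 in the labelled knockout, and was not called (1.62, edgeR adjusted p = 0.181). A list of 10 male-biased liver genes moved beside C6. It summed to 2115 to 5558 CPM in wild-type livers, with wild-type liver 5 the lowest, and to 8284 to 10173 in the labelled knockout. By edgeR 3 of 10 were called higher (Cyp7b1 4.05, Selenbp2 1.46 and Hsd3b5 0.91), against 1.94% of all genes. The part of these genes in the C6 result was not tested.

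The sequences just before the start sites of the 3 called terminal genes are shown because they rose in the same livers. They are from the RefSeq promoter windows of GRCm38.p6 (250 bases before each start, which 29 of the 38 members have), cut off where the count table's gene begins. They run 5′ to 3′ on the gene's strand and span chr15:4726960-4727174 for C6, chr15:6445096-6445326 for C9 and chr2:35061439-35061662 for Hc.
C6: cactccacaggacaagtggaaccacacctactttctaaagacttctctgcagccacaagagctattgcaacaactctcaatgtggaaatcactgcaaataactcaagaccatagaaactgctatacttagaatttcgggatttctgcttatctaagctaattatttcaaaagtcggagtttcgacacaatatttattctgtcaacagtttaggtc
C9: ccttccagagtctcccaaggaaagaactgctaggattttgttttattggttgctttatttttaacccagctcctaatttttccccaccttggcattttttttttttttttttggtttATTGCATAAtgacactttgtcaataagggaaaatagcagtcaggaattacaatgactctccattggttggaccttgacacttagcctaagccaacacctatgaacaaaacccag
Hc: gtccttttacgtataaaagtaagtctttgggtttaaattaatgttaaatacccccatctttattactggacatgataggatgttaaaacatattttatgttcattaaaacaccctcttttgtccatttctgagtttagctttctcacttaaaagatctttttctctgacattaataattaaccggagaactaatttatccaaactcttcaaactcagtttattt
Capitals mark a match to the C/EBP motif TTNNGCAAT, searched on both strands, which lies 114 to 106 bases before the end of the printed C9 stretch, on the opposite strand, and is in 1.93% of all 32851 windows. The windows of C6 and Hc held no match to any motif searched, and GC content was 38.6% for C6, 37.7% for C9 and 29.0% for Hc. The motifs for HNF1, for HNF4 (CAAAGTCCA) and the DR4 repeat of the LXR receptors matched no member's window, and 0.00913%, 0.384% and 0.0152% of all windows.

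The mannose-binding lectins had opposite signs in liver, and edgeR called 1 of them. Mbl2, the lectin known as MBL-C, stood at 533, 477, 469, 576 and 505 CPM in wild-type livers 1, 3, 4, 5 and 6 and at 261, 272, 282, 378 and 360 in labelled knockout livers 1 to 5, with no overlap. It fell by 0.72 on the log2 scale (SE 0.14, edgeR adjusted p = 0.0081) and was called in 10 of 10 fits that left out a library. In a fit of all 20 libraries the value was -0.71 and not called (edgeR adjusted p = 0.0678). Mbl1, or MBL-A, stood at 237, 191, 199, 203 and 175 CPM in wild type and at 217, 237, 253, 345 and 374 in the labelled knockout. The Mbl1 groups overlapped through wild-type liver 1, and the difference was not called by edgeR (0.50, SE 0.16, adjusted p = 0.0966). DESeq2 called Mbl1 higher (0.52, DESeq2 adjusted p = 0.0329), and without labelled knockout livers 4 and 5 it was 0.24 (edgeR adjusted p = 0.365). The proteases that these lectins activate were level between genotypes, with Masp1 at 0.07 and Masp2 at 0.04.

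The start-proximal windows of both lectins are shown because the genes had opposite signs and their windows share a stretch. They are from RefSeq, GRCm38.p6, at chr14:41151206-41151455 (Mbl1) and chr19:30232678-30232927 (Mbl2), both on the plus strand.
Mbl1: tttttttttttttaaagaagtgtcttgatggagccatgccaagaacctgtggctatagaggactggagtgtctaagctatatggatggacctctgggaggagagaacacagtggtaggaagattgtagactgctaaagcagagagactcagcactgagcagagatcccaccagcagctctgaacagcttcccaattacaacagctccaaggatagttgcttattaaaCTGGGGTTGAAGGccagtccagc
Mbl2: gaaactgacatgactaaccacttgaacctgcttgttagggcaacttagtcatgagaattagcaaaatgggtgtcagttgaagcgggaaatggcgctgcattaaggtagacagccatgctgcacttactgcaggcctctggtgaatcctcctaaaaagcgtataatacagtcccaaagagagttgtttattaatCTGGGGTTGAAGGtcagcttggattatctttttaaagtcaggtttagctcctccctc
Capitals mark the longest run of letters that both windows hold, 13 bases that end 11 bases before the Mbl1 start and 45 before the Mbl2 start, and which 3 of 32851 windows contain. A shared run is a description of these letters only.

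Cfp, which encodes properdin, the stabiliser of the alternative pathway convertase, fell in liver. It stood at 33.8, 27.6, 27.6, 38.3 and 40.1 CPM in wild-type livers 1, 3, 4, 5 and 6 and at 11.9, 12.96, 15.0, 15.0 and 25.3 in labelled knockout livers 1 to 5. The groups did not overlap, and labelled knockout liver 5 came nearest to wild type. The log2 fold change was -1.06 (SE 0.20, edgeR adjusted p = 0.00699). It was called in 10 of 10 fits that left out a library, and was -1.33 with labelled knockout livers 4 and 5 left out (edgeR adjusted p = 0.00108). In a fit of all 20 libraries it was -1.05 and not called (edgeR adjusted p = 0.066).

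The 3 chains of C1q, the recognition unit of the classical pathway, had like values in liver, with C1qa at -0.37, C1qb at -0.39 and C1qc at -0.40, and none was called (edgeR adjusted p = 0.309, 0.293 and 0.192). C1qc stood at 44.3 to 55.1 CPM in wild type and at 28.9, 35.6, 30.3, 36.6 and 56.4 in labelled knockout livers 1 to 5, so that liver 5 alone overlapped wild type. Leaving out liver 5 made C1qc lower by edgeR at -0.59 (adjusted p = 0.0104). Without livers 4 and 5, C1qb (-0.68, edgeR adjusted p = 0.0451) and C1qc (-0.64, edgeR adjusted p = 0.0134) were both called. C1ra, the protease of the complex, differed by -0.13 in liver.

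Macrophage markers moved beside Cfp and C1q. Of 8 Kupffer cell markers, the liver's resident macrophage genes, 6 fell, among them Cd5l by 8.45, Timd4 by 2.05, Clec1b by 0.90 and Clec4f by 1.07 on the log2 scale, and the list summed to 162 to 223 CPM in the labelled knockout against 324 to 467 in wild type. None of the 8 was at 0 in a whole group. Of 10 general macrophage markers, 2 fell (Adgre1 by 1.26 and Mpeg1 by 1.14), 1 rose (Cx3cr1 by 2.03) and 7 were not called, and the sums were 139 to 214 CPM against 204 to 301. Beside both lists, edgeR called 4.08% of all genes lower and 1.94% higher in liver. Cd5l is itself a known target of the receptor. The part of these markers in the Cfp and C1q values was not tested. In bulk tissue, fewer cells of a type and less RNA per cell cannot be told apart.

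Cfd, or adipsin, a protease of the alternative pathway that fat cells make in quantity, had the largest fitted value of any member in liver, -4.60, yet was not called (edgeR adjusted p = 0.1). It rested on 1 library. Wild-type liver 5 had 52.5 CPM and the other 9 livers 0.0771 to 1.09, and without wild-type liver 5 the value was -0.21. The adipocyte genes Adipoq and Plin1 stood at 10.2 and 4.16 CPM in that library and at no more than 0.116 and 0.0413 in the other livers, and the sum of 6 adipocyte markers was 73.5 CPM there against 10.4 to 24.9. In kidney, too, the libraries with the most Cfd, labelled knockout kidneys 3 (21.9 CPM) and 2 (8.62) and wild-type kidney 1 (4.75), were those with the most Adipoq (3.33, 1.54 and 0.62 CPM). The sum of the 6 adipocyte markers was 67.2, 52.6 and 44.5 CPM in these libraries, 23.1 to 26.8 in the other labelled knockout kidneys and 50.5 to 59.7 in the other wild-type kidneys, so wild-type kidney 1 had the lowest sum of its group. Cfd was not called there (2.17, SE 1.20, edgeR adjusted p = 0.324). The part of adipocyte RNA in the Cfd values was not tested. Cfb differed by 0.25 and Cfi, the protease that cuts C3b and C4b, by -0.10 in liver, and neither was called. Without labelled knockout livers 4 and 5, Cfb turned to -0.13.

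**Figure D3:**
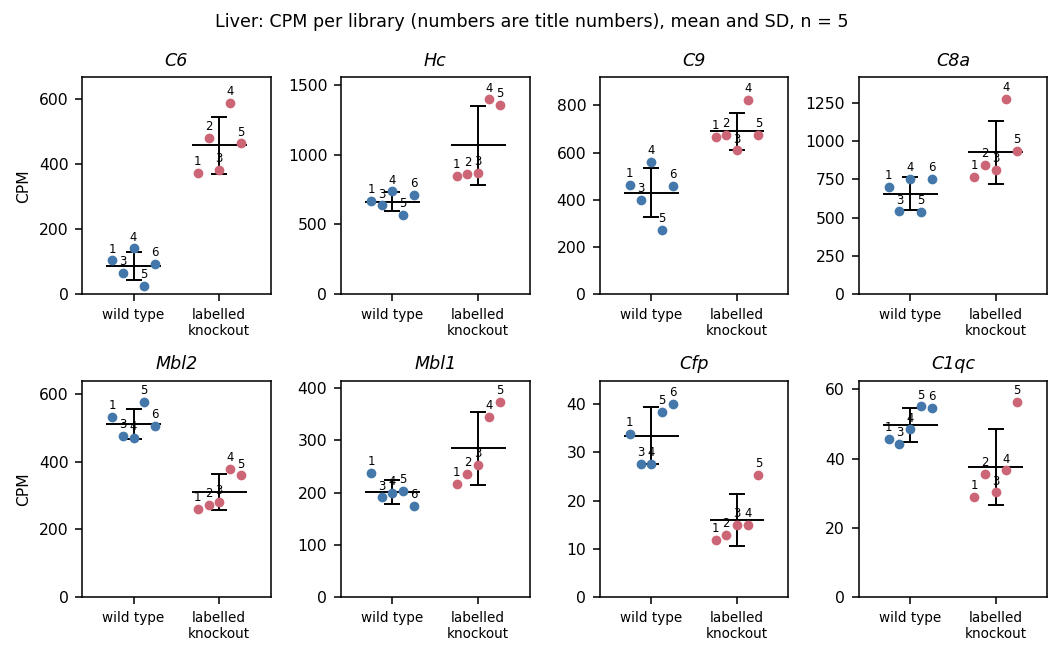
CPM of 8 members in the liver, 1 point per library with its title number, and mean and SD as bars (n = 5 per genotype, axes from 0). The genotypes do not overlap for C6, Hc, C9, C8a, Mbl2 and Cfp, and overlap for Mbl1 and C1qc.

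The fibrinogen genes, the most abundant members, were split within the labelled knockout livers and not between genotypes. Fga stood at 3849, 4818, 4446, 4327 and 4798 CPM in wild-type livers 1, 3, 4, 5 and 6 and at 3503, 4256, 2842, 9359 and 9927 in labelled knockout livers 1 to 5. Labelled knockout livers 4 and 5 lay above every other liver, and the other 3 lay within or under the wild-type range. Fgb was split too, at 3496 to 4354 CPM in labelled knockout livers 1 to 3 and 9480 and 11013 in livers 4 and 5, against 4534 to 4722 in wild type. Fgg stood at 2683 to 3213 and at 6782 and 7782, against 3360 to 3613. For Fgb and Fgg, labelled knockout livers 1 to 3 lay below every wild-type liver. The log2 fold changes were 0.43 for Fga, 0.47 for Fgb and 0.42 for Fgg, none called by edgeR (adjusted p = 0.504, 0.439 and 0.457). Without labelled knockout livers 4 and 5 all 3 turned to -0.32, -0.27 and -0.24, also not called (edgeR adjusted p = 0.325, 0.302 and 0.335).

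C3, the hub of complement, stood at 2927 to 5159 CPM in wild type and at 4208, 4790, 3690, 8500 and 9358 in labelled knockout livers 1 to 5 and was not called (0.55, SE 0.27, edgeR adjusted p = 0.278). Without labelled knockout livers 4 and 5 the C3 value was 0.03 (edgeR adjusted p = 0.962). C4b stood at 1184 to 1433 CPM against 1057, 1049, 980, 2223 and 1883, with a value of 0.17 that turned to -0.30 without labelled knockout livers 4 and 5 and to -0.04 without labelled knockout liver 4 alone. Vtn stood at 4977 and 4980 CPM in livers 4 and 5 and at 2896 to 4004 in the other 8, and its value of 0.17 turned to -0.15 without livers 4 and 5. The acute phase list moved with these livers. Of its 12 genes 6 were called higher by edgeR and by DESeq2 and 0 by limma voom with quality weights, among them Saa1, serum amyloid A, at 7910 and 14757 CPM in labelled knockout livers 4 and 5 and 45.3 to 111 in the other 8, Saa2, Saa3 and Lcn2. These tools called 1.94%, 3.63% and 2.64% of all genes higher in liver. Without livers 4 and 5, the 6 had edgeR adjusted p between 0.109 and 0.894, and Saa1 was at 0.14. The part of this response in the fibrinogen, C3 and C4b values was not tested.

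C4a, the near-identical neighbour of C4b (mm10 chromosome 17, 34809092 to 34823464), was not a member and was examined after its values were seen. It stood at 5.38 to 8.64 CPM in wild-type livers and at 105, 69.2, 107, 95.8 and 293 in labelled knockout livers 1 to 5, so that all 5 lay above wild type. The log2 fold change was 4.36 (SE 0.38, edgeR adjusted p = 3.09e-05). In kidney it was 0.88 and not called (edgeR adjusted p = 0.37), and the kidney change was smaller than the liver change by 3.41 (edgeR adjusted p = 0.00708). Reads shared by C4a and C4b can be split between them in ways the sources do not state, so both values are uncertain.

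**Figure D4:**
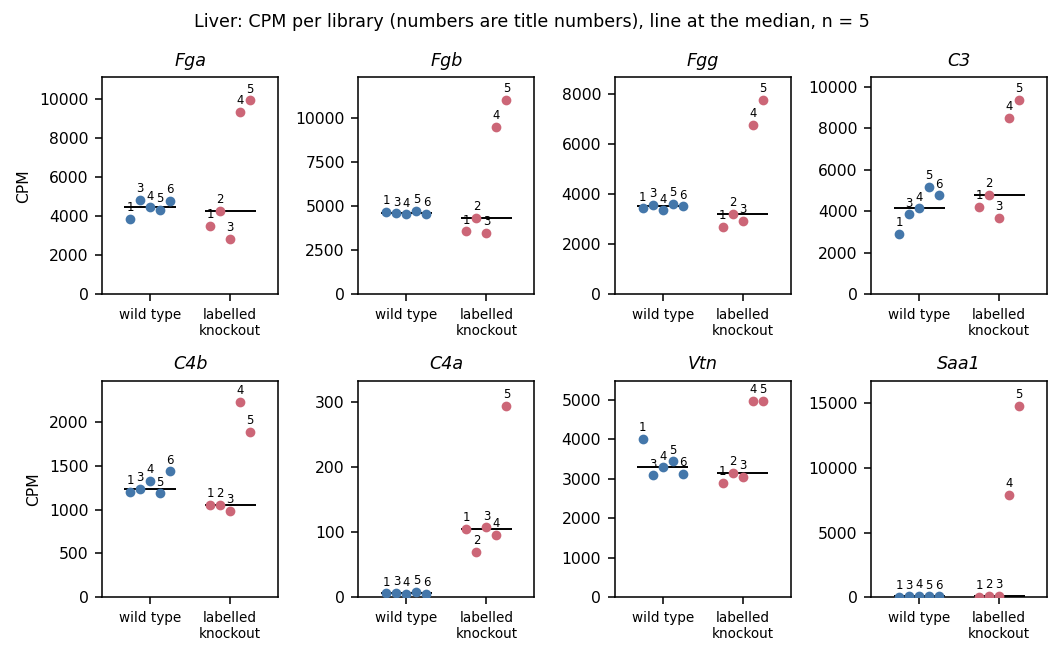
CPM of the fibrinogen genes, C3, C4b, C4a, Vtn and Saa1 in the liver, 1 point per library with its title number and a line at the median (n = 5 per genotype, linear axes from 0). Labelled knockout livers 4 and 5 stand above the other 8 livers for all of these except C4a, where all 5 labelled knockout livers stand above wild type and liver 5 is the highest.

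The windows before the fibrinogen starts are shown because the 3 genes lie in 1 cluster (mm10 chromosome 3, 83007724 to 83049863) and were highest in the same livers. They are RefSeq windows of GRCm38.p6 at chr3:83007474-83007723 (Fgg, plus strand), chr3:83025903-83026075 (Fga, plus strand) and chr3:83049864-83050113 (Fgb, minus strand), written on the gene's strand.
Fgg: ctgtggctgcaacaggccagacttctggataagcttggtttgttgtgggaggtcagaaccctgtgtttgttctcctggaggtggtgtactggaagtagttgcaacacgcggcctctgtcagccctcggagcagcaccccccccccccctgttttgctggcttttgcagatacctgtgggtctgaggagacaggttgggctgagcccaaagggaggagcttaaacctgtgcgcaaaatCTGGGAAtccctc
Fga: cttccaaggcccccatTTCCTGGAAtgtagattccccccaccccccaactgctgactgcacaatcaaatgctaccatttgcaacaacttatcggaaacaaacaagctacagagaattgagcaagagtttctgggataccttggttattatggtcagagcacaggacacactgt
Fgb: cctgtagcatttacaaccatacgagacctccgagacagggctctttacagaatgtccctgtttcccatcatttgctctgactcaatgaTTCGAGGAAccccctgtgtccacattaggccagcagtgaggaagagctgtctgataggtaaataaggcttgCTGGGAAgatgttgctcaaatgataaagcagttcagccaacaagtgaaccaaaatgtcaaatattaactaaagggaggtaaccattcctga
Capitals mark matches to the core of the interleukin-6 response element, CTGGGAA, and to the STAT motif TTCNNNGAA, each searched on both strands. Counted back from the end of each printed stretch, where the count table's gene begins, CTGGGAA lies at 13 to 7 bases for Fgg and 91 to 85 for Fgb, and a STAT match at 157 to 149 for Fga and 162 to 154 for Fgb. Of the 30 windows of these 29 members, 5 held CTGGGAA and 6 the STAT motif, against 9.1% and 7.02% of all 32851 windows.

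No clotting protease was called in liver. The 6 vitamin K-dependent factors, which need a vitamin K-driven carboxylation to bind membranes, had values between -0.13 (F10) and 0.03 (Pros1), with F2, prothrombin, at -0.07, F7 at -0.04, F9 at -0.05 and Proc at 0.01. Their SEs lay between 0.09 and 0.14. F2 lies on the chromosome of Nr1h3, at 91625320 to 91636414 against 91184061 to 91202834. The contact factors F11 (0.21), F12 (-0.07) and Kng1 (-0.25) and the cofactor F5 (-0.13) were not called either. Nor were F13b (-0.43, edgeR adjusted p = 0.264), Plg, the precursor of plasmin (-0.08), and Hrg, a histidine-rich plasma protein (-0.14). None of these 13 genes was called by edgeR, DESeq2 or limma voom in liver, and none had an unadjusted p under 0.05. Of 11 hepatocyte markers 1 fell, albumin (Alb) by 0.75 (edgeR adjusted p = 0.0435), where edgeR called 4.08% of all genes lower. Their median was -0.10. Their sum was 66072 to 101283 CPM in the labelled knockout and 105804 to 140987 in wild type, without overlap. The part of this in the member values was not tested. Of 10 hepatocyte transcription factors 0 were called by edgeR, DESeq2 or limma voom, with 0 at an unadjusted p under 0.05 and a median of 0.10.

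In kidney the called members belong to the classical pathway and to the protein C system. C1ra stood at 16.8, 22.8, 16.7, 18.7 and 12.5 CPM in wild-type kidneys 1, 3, 4, 5 and 6 and at 11.3, 9.84, 11.8, 7.01 and 7.80 in labelled knockout kidneys 1 to 5. The groups met closely but did not overlap, between wild-type kidney 6 and labelled knockout kidney 3. The log2 fold change was -0.87 (SE 0.20, edgeR adjusted p = 0.0427). Its near-identical paralog C1rb stood at no more than 0.101 CPM in any kidney, and how reads shared with it were counted is not given. Leaving out 1 library ended the call in 9 of 10 fits, all but that without wild-type kidney 6, with values from -0.97 to -0.74 and edgeR adjusted p up to 0.128. Without wild-type kidneys 1 and 3 it was -0.74 (edgeR adjusted p = 0.0585), and on the log2 FPKM values -0.83 (limma adjusted p = 0.0596).

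Pros1, protein S, the cofactor of activated protein C, stood at 17.3, 19.1, 21.6, 26.1 and 22.6 CPM in wild-type kidneys 1, 3, 4, 5 and 6 and at 12.4, 15.1, 13.5, 13.6 and 10.2 in labelled knockout kidneys 1 to 5, with no overlap. It fell by 0.72 on the log2 scale (SE 0.17, edgeR adjusted p = 0.0402). The call was lost without wild-type kidney 4 or 5 or labelled knockout kidney 1, 3, 4 or 5 (edgeR adjusted p up to 0.12), with DESeq2 size factors (-0.68, edgeR adjusted p = 0.0528), with no TMM scaling (-0.79, 0.0531), with no filter (-0.67, 0.101) and on the log2 FPKM values (-0.67, limma adjusted p = 0.0673). Without wild-type kidneys 1 and 3 it was -0.85 (edgeR adjusted p = 0.00932).

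Proc, the partner of Pros1 and the most abundant member in kidney, had the opposite sign. It stood at 158, 216, 211, 164 and 205 CPM in wild-type kidneys and at 266, 295, 328, 304 and 441 in labelled knockout kidneys 1 to 5. The groups did not overlap and kidney 5 of the labelled knockout was the highest, but the edgeR test just missed its threshold (0.78, SE 0.19, adjusted p = 0.0521). It was called without wild-type kidney 3 or wild-type kidney 6 (lowest edgeR adjusted p = 0.028), without wild-type kidneys 1 and 3 (0.75, edgeR adjusted p = 0.0352), with DESeq2 (0.82, DESeq2 adjusted p = 0.000787) and with limma voom (0.76, limma adjusted p = 0.00311). The summed level of 9 proximal tubule markers was higher beside it, at 43523 to 57897 CPM in the labelled knockout against 24559 to 40221 in wild type. A sum follows its most abundant genes. The single markers ran from -0.12 to 1.11 with a median of 0.27. Of the 9, edgeR called 1 higher (Slc22a6, 1.11), and DESeq2 and limma voom 2 each, against 0.394%, 1.85% and 4.85% of all genes. Their part in the Proc value was not tested.

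C3 in kidney stood at 15.6, 10.7, 15.2, 15.4 and 13.7 CPM in wild-type kidneys 1, 3, 4, 5 and 6 and at 6.41, 12.7, 9.91, 8.25 and 5.74 in labelled knockout kidneys 1 to 5. The groups overlapped through wild-type kidney 3, and the difference was not called by edgeR (-0.71, SE 0.22, adjusted p = 0.114) but was by limma voom (-0.76, limma adjusted p = 0.0142). The C1q chains had values of -0.53 (C1qa), -0.45 (C1qb) and -0.56 (C1qc), and none was called by edgeR or DESeq2. Limma voom called all 3 lower, at -0.70, -0.55 and -0.74 (limma adjusted p = 0.0115, 0.04 and 0.0142), and without wild-type kidneys 1 and 3 edgeR called C1qa lower (-0.74, adjusted p = 0.0395). Of 10 general macrophage markers in kidney, 4 were lower at an unadjusted p under 0.05, 0 were called by edgeR and by DESeq2 and 1 by limma voom, and their sums were 101 to 179 CPM in the labelled knockout and 128 to 165 in wild type. Clec4f, the defining Kupffer cell gene, was at 0 in all 10 kidneys. The part of these markers was not tested.

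The other kidney members were low or scattered. Masp1, at 1.30 to 2.69 CPM in wild type and 0.377 to 1.63 in the labelled knockout, had a value of -1.04 (edgeR adjusted p = 0.159), and its annotated span overlaps on the opposite strand that of Rtp4, an interferon-responsive gene that fell by 1.75 (edgeR adjusted p = 0.00336). To which gene reads from the shared stretch were counted is not given. F2 (1.37) and Hrg (1.32) had the largest positive values after Cfd, but stood at no more than 1.61 and 3.26 CPM in any kidney and were not called (edgeR adjusted p = 0.161 and 0.173). F13b ranged from 15.0 CPM in wild-type kidney 3 to 151 in wild-type kidney 6, a spread wider than the gap between the group means of 80.4 and 91.6 CPM, and its value of 0.19 turned to -0.06 without wild-type kidney 3. Cfp, at -0.91, rested on wild-type kidney 3 (22.97 CPM against 3.92 to 9.25 in the other 9 kidneys), and without that library it was -0.28. Fibrinogen was low in kidney, with Fga at 4.03 to 16.03 CPM in wild type and 7.91 to 31.2 in the labelled knockout (0.45), Fgb at 0.646 to 1.94 and 0.452 to 1.05 (-0.62) and Fgg at 1.72 to 11.3 and 4.96 to 9.49 (0.36), none called. Without wild-type kidneys 1 and 3, Fgg was at 0.0038 and Hrg at 1.91. C2 then turned from 0.13 to -0.13, and Cfi went from -0.52 to -0.90. C8a (0.16) and C8g (0.21), the terminal members that passed the filter, overlapped between genotypes.

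**Figure D5:**
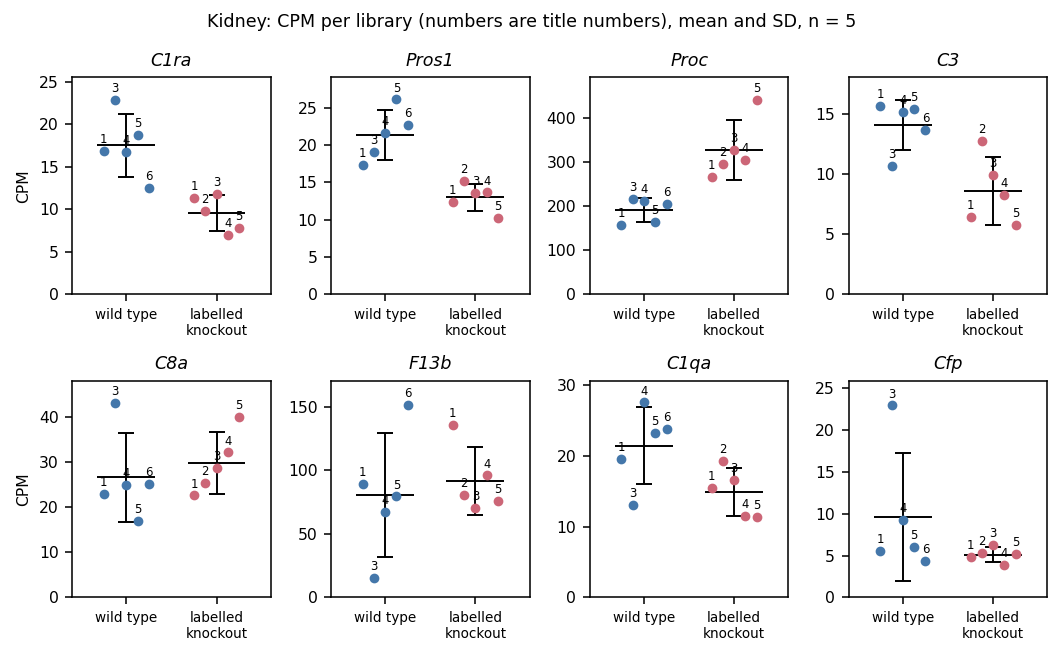
CPM of 8 members in the kidney, 1 point per library with its title number, and mean and SD as bars (n = 5 per genotype, axes from 0). C1ra and Pros1 are lower and Proc is higher in every labelled knockout library, C3, C8a, F13b, C1qa and Cfp overlap, and wild-type kidney 3 is the extreme library for Cfp and F13b.

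Whether the genotype effect depended on the tissue was tested as the kidney effect minus the liver effect in a fit of all 20 libraries. No member was called among 38 by edgeR, where 1.51% of 17606 genes were, 0.937% with a higher and 0.568% with a lower effect in kidney. At an unadjusted p under 0.05 there were 4 members with a higher and 5 with a lower effect in kidney, against 6.37% and 7.16% of all genes. DESeq2 called 4 of each, against 1.99% and 1.48% of all genes, and limma voom 2 of each, against 2.48% and 1.39%. The fit takes the libraries as independent, although both tissues came from the same 10 mice. With title numbers taken to mark the mouse, as a block, edgeR called 0 members and 181 genes. Without wild-type kidneys 1 and 3 and labelled knockout livers 4 and 5 it called 1 member with a higher (Hrg, 2.16) and 1 with a lower effect in kidney (Pros1), against 1.15% and 0.536% of all genes. Hrg had 7 to 95 counts per kidney library, and with all 20 libraries it was 1.48 and not called (edgeR adjusted p = 0.142). With all 20 libraries Pros1 came nearest to a call, at -0.73 (SE 0.19, edgeR adjusted p = 0.0563), with the kidney value of -0.72 beside 0.03 in liver. It was called without wild-type kidney 1 or 3 (lowest edgeR adjusted p = 0.0252) and without these together with labelled knockout livers 4 and 5 (-0.84, edgeR adjusted p = 0.0164). Proc differed by 0.80 (SE 0.24, edgeR adjusted p = 0.107), C1ra by -0.72 (SE 0.23, 0.142) and C3 by -1.25 (SE 0.41, 0.145). The C6 difference was -2.05 (SE 0.74, edgeR adjusted p = 0.2), but C6 had only 1 to 7 counts per kidney library, so the kidney side of it rests on few counts.

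Of the wider pathways, taken from lists of other genes, few members were called. Of 27 complement regulators and receptors, 1 fell in liver, Vsig4, a complement receptor of Kupffer cells, by 0.72 (edgeR adjusted p = 0.0351), and 26 were not called. In kidney 1 of 21 tested fell, Cd93, a surface protein of endothelial and myeloid cells, by 1.32 (edgeR adjusted p = 0.012). Of all genes, edgeR called 4.08% lower in liver and 1.87% lower in kidney. The other kidney values of this list leaned down without a call by edgeR, with a list median of -0.37 against -0.0738 over all genes. DESeq2 and limma voom each called 5 of the 21 lower, against 5.07% and 8.18% of all genes. In kidney C1s1, the C1ra partner protease, was at -0.98 (edgeR adjusted p = 0.0525), without overlap between genotypes. Of the coagulation and fibrinolysis regulators, none of 24 in liver and none of 25 in kidney was called by edgeR. In liver 2 were higher and 2 lower at an unadjusted p under 0.05, against 8.76% and 11.5% of all genes. There DESeq2 called 2 lower and limma voom 1 higher, against 5.87% and 2.64% of all genes. In kidney 2 were higher and 7 lower at an unadjusted p under 0.05, against 5.81% and 14% of all genes. DESeq2 called 1 higher and 1 lower, against 1.85% and 5.07%, and limma voom 1 and 6, against 4.85% and 8.18%. In the main edgeR fit F2r, the thrombin receptor PAR1, was the one gene of these lists called for a difference between tissues. It was at -0.80 in kidney and 0.49 in liver (difference -1.27, SE 0.31, edgeR adjusted p = 0.0383). For the difference, DESeq2 called 3 complement genes lower and 1 coagulation gene higher and 1 lower, and limma voom 1 lower in each list. Without wild-type kidneys 1 and 3 and labelled knockout livers 4 and 5, edgeR also called Klkb1 (-1.01, adjusted p = 0.0244) and Cpn2 (4.25, 0.0492).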

How the data were processed

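Kidney and liver RNA of 10 mice (5 labelled Lxrα-/-, 5 wild type) was read in 20 libraries. The deposited table holds whole-number counts per gene as the authors left them, with no scaling, for 54532 genes. A second deposited table holds log2 FPKM for 15454 genes and served in 1 alternative. Per the submitters' processing notes, HISAT2 2.0.5, StringTie and DESeq2 1.16.1 with build mm10 were used, with no role given. The counting tool and the use of strand are not given in the sources used here.

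Samples were grouped by the genotype and tissue of their labels. For each tissue, the 10 libraries were fitted with edgeR 4.0.16 in R 4.3.3: filterByExpr (minimum count 10), TMM scaling, quasi-likelihood F test, Benjamini-Hochberg adjustment over all genes tested, called at an adjusted p under 0.05. The difference between tissues came from all 20 libraries. FPKM was computed from counts, library size and the deposited gene length. Alternatives were DESeq2 1.42.0, voom and trend fits of limma 3.58.1, other scaling and filters, title numbers as a block, and leaving out each library. The scripts were tested on simulated data. No 2 libraries of a group were alike enough to be the same one: at most 34.2% of genes had equal counts, zeros included. Libraries of different groups were not compared in this way. The zero-count limit given for F11 covers counting error only, whereas SDs and SEs also hold the spread between libraries.

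Members, lists and tests were chosen with earlier results of these data known. All members were described by role. Values per library were given for called members, C3 and fibrinogen, and pathway genes were named from lists by the smallest p among those called. Proc, Cfd, Mbl1, C8a, C4b, F13b and the C1q genes in full, and C4a, C1rb, C7, Rtp4, Gm20547, C1s1 and F2r, were named after their values were seen, as were the fits without wild-type kidneys 1 and 3 or labelled knockout livers 4 and 5. Between genotypes of equal title number, correlations of deviations were 0.0846 to 0.236 in kidney and -0.046 to -0.00568 in liver, over 4 pairs each. Between the tissues of equal title they were -0.19 to 0.472 over 10 pairs. Pairs of unequal number were not correlated, so these values cannot settle whether equal numbers pair the genotypes.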

Additional observations from a re-analysis of the deposited data

Results flagged for a closer look

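In 12 of 134 groups of 5 libraries with a tested member, 1 library lay apart from the other 4 (its gap to the nearest over the whole range exceeded 0.71), where 6.7 such groups would be met at a rate of 1 in 20. The members share their libraries, so the 134 groups are not independent and no excess can be read from these numbers. In kidney, Cfd stood at 4.75 CPM in wild-type kidney 1 against 0.161 to 0.81 in the other 4, and Cfp at 23 in wild-type kidney 3 against 4.36 to 9.25. C4b stood at 8.97 CPM in wild-type kidney 6 against 4.51 to 4.74. In labelled knockout kidneys, F5 stood at 9.67 CPM in kidney 1 against 1.05 to 3.32, F10 at 1.29 in kidney 2 against 0.0675 to 0.37, and Mbl2 at 0.0377 in kidney 4 against 0.259 to 0.349.

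In liver, the widest gap was that of Cfd in wild-type liver 5, at 52.5 CPM against 0.172 to 1.09. F10 was also highest in wild-type liver 5, at 671 CPM against 532 to 556, and Plg was lowest in wild-type liver 1, at 1236 against 1628 to 1692. In labelled knockout livers, C1qc (56.4 CPM against 28.9 to 36.6) and Cfp (25.3 against 11.9 to 15.0) were both highest in liver 5, and F7 was highest in liver 4, at 142 against 114 to 121.

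The genotype effect on F2r differed between kidney and liver by -1.27 (edgeR adjusted p = 0.0383), by the test of the difference itself.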

How the results depend on the processing

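In kidney, DESeq2 called 1143 genes (306 higher, 837 lower) and 1 member higher, and voom 2151 genes with 2 members higher and 7 lower. DESeq2 size factors gave 1 member higher and 1 lower. Without TMM scaling 1 member was lower and the split of all genes was 38 higher to 358 lower, against 65 to 308; with no filter 1 was lower. Over all kidney fits listed here the median of all genes ran from -0.16 to 0.01. On log2 FPKM 0 members were lower and 237 genes called. The fit of all 20 libraries gave 3 members higher and 948 genes, and that without wild-type kidneys 1 and 3 gave 1 higher and 590 genes (177 higher, 413 lower). Fga turned to -0.0043 with voom, and F13b to -0.12 without these kidneys. In liver, DESeq2 called 5 members higher and 1408 genes, no TMM scaling 1 member higher (all genes 216 to 766, against 288 to 605), the fit of all 20 libraries 0 members lower, and that without labelled knockout livers 4 and 5 1 higher and 4 lower. Proc and Pros1 turned to -0.064 and -0.050 without TMM scaling. With voom C4b, Fga, Fgb and Fgg turned to -0.16, -0.072, -0.0078 and -0.0085, and without those livers to -0.30, -0.32, -0.27 and -0.24.

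For the difference between tissues, DESeq2 called 4 members higher and 4 lower (611 genes), voom 2 and 2 (681 genes), no TMM scaling 176 genes, no filter 1 member higher, a filter at a mean of 1 CPM 1 lower, and the fit without the kidneys and livers named above 1 and 1. Fga turned to -0.044 without TMM scaling, and C9 to -0.035 with voom. Fgg turned to 0.012 without a filter, 0.28 with voom, 0.33 on log2 FPKM and 0.28 without those libraries. The cause of these shifts was not tested.

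The title number as a replicate block gave 1 member lower and 902 genes in kidney (Cfd -0.40), and 1 member higher, 1 lower and 307 genes in liver (Proc -0.016). There the calls of Hc (edgeR adjusted p = 0.151), C9 (0.126) and Mbl2 (0.116) were lost, and in kidney that of Pros1 (0.0669). With the mouse as a block, Fgg turned to 0.26 in the difference. The labels do not say that equal title numbers pair the genotypes or mark the same mouse in both tissues.

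Leaving out each library in turn gave 99 to 921 genes in kidney, 575 to 913 in liver and 165 to 487 for the difference. Members called higher and lower ran from 0 to 1 and 0 to 2 in kidney, 1 to 3 and 2 to 3 in liver, and 0 to 1 and 0 to 1 for the difference. Ranges that crossed 0 were F13b -0.062 to 0.55 in kidney, Pros1 -0.021 to 0.085, Proc -0.039 to 0.082 and C4b -0.036 to 0.29 in liver, and Fga -0.34 to 0.30, Fgg -0.28 to 0.32, Mbl2 -0.35 to 0.058 and Hc -0.58 to 1.18 for the difference. Of the values of single genes, 965 kept their direction and side of the threshold, 31 gained a call, 48 lost one and 40 reversed. Low counts of single members limit kidney, where 9 had too few to be tested.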

Other observations

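The list of male-biased liver genes, read in kidney, had 3 of 7 tested members called higher in the labelled knockout by edgeR (Cyp4a12a 3.97, Slco1a1 2.25 and Cyp4a12b 1.87 on the log2 scale), 5 by DESeq2 and 6 by limma voom, and its median was 1.55. Of all genes, these tools called 0.394%, 1.85% and 4.85% higher in kidney. In liver, Lrp2, the tubule endocytic receptor megalin, was the 1 proximal tubule marker tested and was called higher by edgeR at 2.41. Of 8 hepatocyte markers tested in kidney, Apoc3, an apolipoprotein of triglyceride-rich particles, fell by 1.26 (edgeR adjusted p = 0.0312), where edgeR called 1.87% of all genes lower. None of 4 neutrophil markers and none of 2 adipocyte markers was called in either tissue by edgeR, DESeq2 or limma voom. At an unadjusted p under 0.05, 1 neutrophil marker was lower in kidney and 1 adipocyte marker in liver. In kidney, 0 of 6 hepatocyte transcription factors and 0 of 4 acute phase genes were called by edgeR and by DESeq2, with 1 lower and 1 higher at an unadjusted p under 0.05, which limma voom called.

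Some members share sequence or position with other genes, and their values are uncertain to the extent that reads were shared. C1rb, the paralog of C1ra, stood at 0.116 to 0.698 CPM in liver. The annotated spans of C8g and Fbxw5, C2 and Zbtb12, Masp2 and Tardbp, Plg and Slc22a3, and C8a and Gm17662 overlap in the count table's own coordinates.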
